A study of Mus musculus with 4 samples.

Results

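Sites of open chromatin with a peak listed for Znhit1 knockout spermatocytes and not for control spermatocytes were examined at the ends of single protein-coding genes. Absence from a list can mean a closed site or an undetected one. A site was taken when its peak on chromosomes 1 to 19 of the knockout list shared no base with any control peak and lay within 1 kb of an annotated end of exactly 1 protein-coding gene. Of 21004 separate knockout peaks, 20845 were autosomal, 6283 of those lay at the end of exactly 1 coding gene, and 2095 of these (33.3%) met the rule. They belonged to 2002 of 20665 autosomal coding genes (9.69%), against 1071 (5.18%) with a control-only peak by the same rule with the lists exchanged. The rule itself uses the presence or absence of overlap between the lists, so the number of sites is a description and carries no test.

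ATAC-seq, an assay that tags accessible DNA with Tn5 transposase, was run on pachytene spermatocytes from mouse testis. The labels name 4 libraries, 2 with the genotype Znhit1_KO and 2 with the genotype CTRL, all with the tag P35 and with more than 30000000 reads each. Only 1 peak list of the knockout and 1 of the control were analysed here. They give peak positions and no height, so no difference between genotypes has a replicate check. The sources used here do not give the strain, the alleles of each group, any Cre driver or the depth behind each list.

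ZNHIT1 is a subunit of the SRCAP remodelling complex, which exchanges histone H2A for the variant H2A.Z at nucleosomes next to gene starts. Active promoters, above all those rich in CpG dinucleotides, usually hold a nucleosome-depleted stretch that Tn5 can reach, flanked by H2A.Z nucleosomes. At pachytene, homologous chromosomes are fully synapsed and spermatocytes switch on a large programme of genes for meiosis and sperm formation.

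The labelled cell type was checked against 15 genes typical of pachytene spermatocytes. A gene-end peak in at least 1 list was present at 14 of them, and Ccna1 had none. Sycp1, Hormad1, Mybl1 and Piwil1 were among those with a peak shared by both genotypes. By the same count, 9318 of all 20665 autosomal genes that code for protein carried such a peak. It was also present at 17 of 38 genes of spermiogenesis and at 7 of 20 spermatogonial genes. Znhit1 itself had a shared peak, and the lists hold no value that would check its loss. Of 18 Sertoli cell markers 4 had a gene-end peak, and of 20 markers of immune, endothelial, peritubular and Leydig cells 1 had one. All 5 of these genes had it in the knockout list alone. Sox9, Wt1, Amh, Insl3 and Star had none.

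Promoter sequence describes the sites that had a peak in the knockout list alone. The 4 promoters printed first lie wholly under knockout-only peaks, those of Ctbp1 and Trim44 being among the widest and those of Chek1 and Tex12 the widest of the meiotic gene lists with a whole promoter covered. The first pair belongs to a transcriptional corepressor gene and a gene of the TRIM family, and the second to the checkpoint kinase that ATR activates and to a central element protein of the synaptonemal complex. The last pair, the promoters of the glutathione transferase gene Gstm1 and of Htatip2, had the lowest CpG ratio among the 200 widest knockout-only peaks that cover a promoter. Each is the RefSeq promoter of GRCm38.p6, from 250 bases before to 50 after the start, read 5′ to 3′ on the strand of the gene, with CpG dinucleotides in capitals.
Ctbp1: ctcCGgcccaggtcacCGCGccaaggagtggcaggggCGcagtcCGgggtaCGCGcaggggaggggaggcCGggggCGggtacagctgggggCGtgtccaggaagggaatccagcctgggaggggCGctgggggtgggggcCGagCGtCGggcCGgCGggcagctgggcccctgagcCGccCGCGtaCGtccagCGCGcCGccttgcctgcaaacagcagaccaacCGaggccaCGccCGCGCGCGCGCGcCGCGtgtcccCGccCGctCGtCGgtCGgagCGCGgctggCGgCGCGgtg
Trim44: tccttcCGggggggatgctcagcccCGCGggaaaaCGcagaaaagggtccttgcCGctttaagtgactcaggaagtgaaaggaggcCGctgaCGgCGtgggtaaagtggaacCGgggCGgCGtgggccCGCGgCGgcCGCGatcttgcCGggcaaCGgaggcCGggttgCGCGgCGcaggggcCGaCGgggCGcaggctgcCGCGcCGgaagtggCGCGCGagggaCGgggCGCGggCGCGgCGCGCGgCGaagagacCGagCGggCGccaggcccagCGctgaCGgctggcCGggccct
Chek1: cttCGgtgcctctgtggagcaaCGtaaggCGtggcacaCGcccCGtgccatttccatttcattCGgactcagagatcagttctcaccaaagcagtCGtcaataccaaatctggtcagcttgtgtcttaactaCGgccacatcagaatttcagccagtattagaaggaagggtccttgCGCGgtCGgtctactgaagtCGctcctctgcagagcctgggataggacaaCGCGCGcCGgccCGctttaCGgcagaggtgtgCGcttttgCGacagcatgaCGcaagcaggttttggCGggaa
Tex12: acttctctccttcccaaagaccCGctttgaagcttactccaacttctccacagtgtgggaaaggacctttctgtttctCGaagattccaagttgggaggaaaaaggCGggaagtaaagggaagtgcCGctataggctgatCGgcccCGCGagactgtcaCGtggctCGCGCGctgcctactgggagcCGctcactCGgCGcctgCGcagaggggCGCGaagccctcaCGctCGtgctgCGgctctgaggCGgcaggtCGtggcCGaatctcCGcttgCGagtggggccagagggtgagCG
Gstm1: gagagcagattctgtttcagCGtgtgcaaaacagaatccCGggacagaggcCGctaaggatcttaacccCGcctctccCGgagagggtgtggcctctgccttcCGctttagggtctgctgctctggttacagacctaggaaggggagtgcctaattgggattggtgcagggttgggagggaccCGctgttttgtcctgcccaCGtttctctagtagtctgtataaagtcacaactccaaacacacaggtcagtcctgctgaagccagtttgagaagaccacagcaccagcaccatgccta
Htatip2: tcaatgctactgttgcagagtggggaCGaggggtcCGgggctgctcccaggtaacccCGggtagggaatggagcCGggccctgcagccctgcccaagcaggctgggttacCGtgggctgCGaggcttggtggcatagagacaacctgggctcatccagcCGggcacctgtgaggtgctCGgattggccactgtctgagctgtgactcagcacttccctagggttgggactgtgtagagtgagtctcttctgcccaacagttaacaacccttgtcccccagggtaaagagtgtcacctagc

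The windows lie at chr5:33274955-33275254 on the minus strand for Ctbp1, chr2:102400851-102401150 on the minus strand for Trim44, chr9:36726609-36726908 on the minus strand for Chek1 and chr9:50561219-50561518 on the minus strand for Tex12. The window of Gstm1 is chr3:108017769-108018068 on the minus strand and that of Htatip2 is chr7:49759262-49759561 on the plus strand. In 300 bases the Ctbp1 promoter held 43 CpG dinucleotides, Trim44 46, Chek1 22, Tex12 26, and Gstm1 and Htatip2 8 each. The CpG ratio, the number seen over the number that the C and G content alone would give, was 0.94 for Ctbp1, 1.14 for Trim44, 0.96 for Chek1 and 0.91 for Tex12, against 0.36 for Gstm1 and 0.29 for Htatip2. The Chek1 and Tex12 promoters both held GGCGGGA, the letters bound by E2F factors, and the Gstm1 promoter held TATAAA, the TATA box.

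Promoters under knockout-only peaks were CpG rich, though less so than promoters under shared peaks. Of the 2095 sites, 1657 belonged to a gene with a RefSeq promoter entry, and 994 of these (60.0%, Wilson 95% interval 57.6 to 62.3) overlapped a promoter of that gene. Wilson intervals here and below cover counting error only. The same share was 91.7% (90.7 to 92.6) for the 4188 shared knockout peaks at the end of 1 coding gene and 46.2% (42.9 to 49.6) for the control-only peaks found by the same rule with the lists exchanged, which numbered 1108 of 5315 (20.8%). With 1 promoter per gene, the median CpG ratio was 0.77 (quartiles 0.60 and 0.91) over 993 promoters under knockout-only peaks, 0.85 (0.73 and 0.96) over 3139 under shared peaks and 0.70 (0.51 and 0.85) over 392 under control-only peaks. The 9467 genes with no peak of either list on a promoter had a median of 0.29 (0.13 and 0.58). A ratio of at least 0.6, a usual criterion for CpG islands, was reached by 75.4% (72.7 to 78.0) of promoters under knockout-only peaks, 91.7% (90.7 to 92.7) under shared peaks, 64.8% (59.9 to 69.4) under control-only peaks and 24.0% (23.1 to 24.8) of those without a peak.

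**Figure D1:**
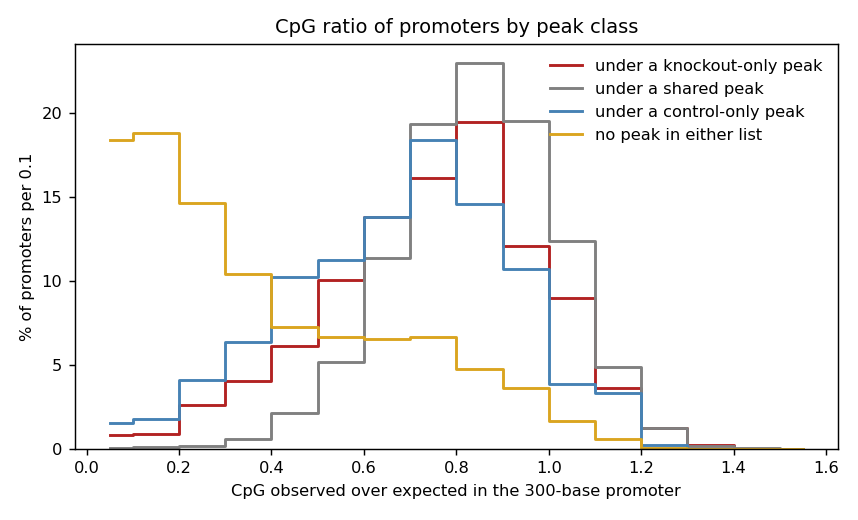
The horizontal axis is the CpG observed-over-expected ratio of the 300-base RefSeq promoter and the vertical axis the percentage of promoters per step of 0.1, for promoters under knockout-only, shared and control-only peaks and for genes without a promoter peak. The knockout-only line (median 0.77) lies between the shared line (0.85) and the control-only line (0.70), and all of them lie right of genes without a peak (0.29).

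Among knockout-only and shared peaks the CpG ratio was higher under wider peaks, and the widest knockout-only sites came closest to shared sites. Among control-only peaks the median did not follow width throughout, with 0.76 from 500 to 699 bp and 0.73 at 700 bp or more. Among knockout-only peaks of at least 700 bp, 161 of 176 promoters (91.5%, 86.4 to 94.8) had a ratio of at least 0.6, against 94.2% (93.0 to 95.2) of 1801 under shared peaks that wide, and 76.5% (63.2 to 86.0) of 51 under control-only peaks that wide. Below 300 bp the share was 62.1% (55.0 to 68.7) of 190 promoters under knockout-only peaks, 83.1% (74.0 to 89.5) of 89 under shared peaks and 61.3% (48.8 to 72.4) of 62 under control-only peaks. From 300 to 499 bp the medians were 0.72, 0.79 and 0.68 in the same order of classes. Intervals of knockout-only and shared peaks overlapped among the widest peaks and not from 300 to 499 bp, where 68.6% (63.6 to 73.2) and 84.8% (81.1 to 87.8) reached 0.6.

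Short letter motifs of promoter-binding factors were counted in the same windows on both strands. The GC box GGGCGG, bound by SP and KLF factors, was in 69.1% (66.1 to 71.9) of promoters under knockout-only peaks, 76.8% (75.3 to 78.2) under shared peaks, 62.5% (57.6 to 67.1) under control-only peaks and 47.3% of all 16457 promoters taken 1 per gene. The E2F letters GGCGGGA were in 21.3% (18.9 to 24.0) under knockout-only, 26.5% (25.0 to 28.1) under shared and 19.9% (16.2 to 24.1) under control-only peaks, and in 15.3% of all. The ETS letters CCGGAAG were in 17.0%, 22.4% and 19.4% of the classes in that order and in 12.3% of all. For NRF1, GCATGCGC was in 5.44% (4.19 to 7.03) under knockout-only, 9.46% (8.49 to 10.5) under shared and 3.32% (1.95 to 5.59) under control-only peaks, and in 3.66% of all.

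Motifs of factors with known roles in spermatocytes came next. The full CRE TGACGTCA, bound by CREM and related factors, was in 4.13% (3.06 to 5.55) of promoters under knockout-only peaks, 4.59% (3.91 to 5.38) under shared peaks, 2.81% (1.57 to 4.95) under control-only peaks and 2.42% of all, and its shorter form TGACG in 27.8%, 39.3%, 28.3% and 24.2%. The RFX letters GTTGCCA was in 4.43% (3.32 to 5.90) under knockout-only, 4.05% (3.41 to 4.79) under shared, 8.16% (5.84 to 11.3) under control-only peaks and 4.27% of all. Of the 2 MYB spellings, ACCGTTA was in 0.906%, 1.12%, 0.510% and 0.571% and GCAGTTG in 2.82%, 3.47%, 5.87% and 3.80% of the 4 sets in that order. The TATA box TATAAA was in 6.45% (5.08 to 8.15) under knockout-only, 5.29% (4.56 to 6.13) under shared and 7.14% (4.99 to 10.1) under control-only peaks, against 13.5% of all promoters and 19.3% of those without a peak. CCAAT, bound by NFY, was in 35.5%, 43.8% and 36.0% of the classes and in 39.0% of all. GGGCGG and GGCGGGA can share letters, and each TGACGTCA also counts as TGACG. A match of letters is a description and not a bound site.

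At single gene ends, 33.3% of the 6283 autosomal knockout peaks had no control peak on them, against 67.8% of all autosomal knockout peaks. For the control list the shares were 20.8% and 55.8%. The knockout-only set was 1.89 times the size of the control-only set, 2095 against 1108 peaks, and it covered 0.931 Mb against 0.478 Mb. With both lists limited to intervals on at least 2 lines, the sets held 1269 and 1095 peaks, a ratio of 1.16. Of those 1269 peaks, 643 were among the 2095. The knockout list is itself longer, and whether depth or enrichment differed between the lists was not tested.

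Knockout-only sites were narrow peaks for the most part, with a tail of broad ones. Their median width was 393 bp (quartiles 278.5 and 560.5 bp), from 150 to 1517 bp, against 731 bp (534 and 927 bp) for shared knockout peaks. The control-only set had the same median of 393 bp (290 and 533 bp). Peaks under 300 bp made up 30.5% of the knockout-only set, 4.13% of the shared set and 28.0% of the control-only set. At least 1000 bp wide were 45 knockout-only and 9 control-only peaks.

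The share of knockout gene-end peaks with no control peak was smaller in each wider class. It was 84.9% (78.0 to 89.9) of knockout peaks under 200 bp, 46.7% (43.2 to 50.3) from 400 to 499 bp and 5.44% (4.09 to 7.20) at 1000 bp or more. In the control list the share without a knockout peak was 75.0% (62.3 to 84.5), 30.2% (26.9 to 33.7) and 1.30% (0.686 to 2.45) in the same width classes. A wider peak has more bases that can meet a peak of the other list, so part of this slope follows from the rule.

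**Figure D2:**
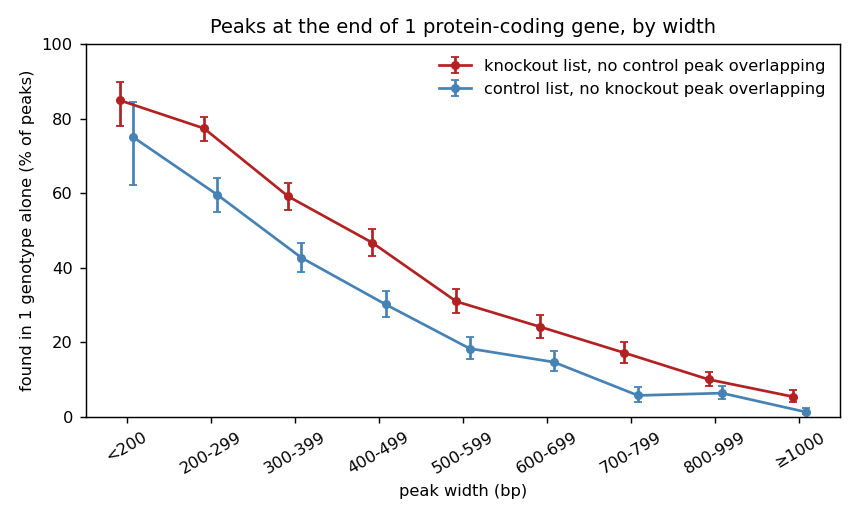
Peak width in bp runs along the horizontal axis, and the vertical axis is the percentage of gene-end peaks with no overlapping peak in the other list, with Wilson 95% intervals, for the knockout and the control list. Both lines are highest under 200 bp and lowest at the right end, with 5.44% in the knockout and 1.30% in the control at 1000 bp or more, and the knockout line lies above the control line in each width class.

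Some intervals stand on several lines of the deposited lists, and this happened less often in knockout-only than in shared peaks. In the knockout-only set 643 of 2095 peaks (30.7%, 28.8 to 32.7) were listed more than once, against 66.4% (65.0 to 67.8) of shared knockout peaks and 31.9% (29.2 to 34.7) of control-only peaks. Median width was 318 bp for the 1452 knockout-only peaks on 1 line, 587 bp for 506 on 2 lines, 846 bp for 111 on 3 lines, 1090.5 bp for 20 on 4 lines and 1270 bp for 6 on 5 lines. The last 6 lay at Ctbp1, Trim44, Eid1, Grk2, Anp32b and Phc1.

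Most knockout-only sites lay at the start of their gene. The strand was known for 1657 of the 2095 sites, and 1409 of these (85.0%, 83.2 to 86.7) were at the start and 248 (15.0%, 13.3 to 16.8) at the 3′ end. Among shared knockout peaks 0.728% (0.494 to 1.07) were at the 3′ end, and among control-only peaks 20.2% (17.6 to 23.0). Knockout-only peaks covered the annotated start itself at 833 of the 1409 start sites (59.1%, 56.5 to 61.7), shared peaks at 85.7% (84.5 to 86.8) and control-only peaks at 44.3% (40.6 to 48.1). The centre of the start peaks lay a median of 104.5 bp downstream of the start in the knockout-only set, 94.5 bp in the shared set and 176 bp in the control-only set. The upper quartile was 365.5 bp, 224.5 bp and 525.5 bp, so the centres of sites in 1 list alone were spread further into the gene.

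Sites at 3′ ends were smaller than those at starts. Their median width was 290.5 bp (quartiles 236 and 380.5 bp), against 417 bp (295 and 582 bp) at starts, and 27 of 248 (10.9%, 7.59 to 15.4) were listed more than once, against 33.3% (30.9 to 35.8) at starts. Of the 248, 18 covered the annotated 3′ end. Slc35c2, a nucleotide sugar transporter family gene, had a 3′ peak of 943 bp, and Stra8, which drives meiotic entry, had a pair of small ones, of which the wider was 335 bp.

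**Figure D3:**
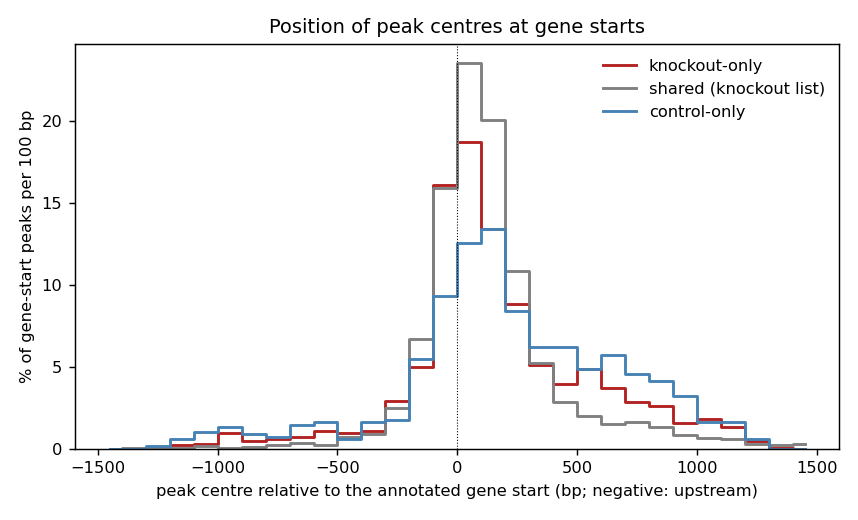
The horizontal axis is the distance in bp from the annotated gene start to the peak centre (negative values upstream) and the vertical axis the percentage of start peaks per 100 bp, for knockout-only, shared and control-only peaks. All classes peak just downstream of the start, with medians of 104.5, 94.5 and 176 bp, and the control-only line has the heaviest shoulder inside the gene.

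For most sites the nearest control peak was more than 10000 bp away. The rule leaves out overlapping peaks and the control list held 15241 autosomal peaks, so part of this distance follows from the rule and the list. Distances for other classes of peaks were not computed, so these values are a description. The median distance from a knockout-only site to it was 26556 bp (quartiles 8997.5 and 68071.5 bp), and 1524 sites (72.7%) were more than 10000 bp from any control peak. Within 500 bp lay 162 sites (7.73%). The closest was at Creb3l2, a transcription factor gene, where a 232 bp peak lay directly next to a control peak, followed by Nr2c1 at 8 bp and Siah1a, a ubiquitin ligase gene, at 10 bp. On the other side of the rule, knockout peaks left out for a small overlap included those of Foxd4 with 1 shared base, Ccne1, the cyclin E1 gene, with 7, and Timm22 and Prkar2a with 8 each. Just inside the 1 kb window were the sites of Tmem231 and Col12a1 at 998 bp and Crybg2 at 997 bp, and just outside it were knockout-only peaks 1001 bp from Arl5c, 1002 bp from Tgfb1 and 1003 bp from Zfp641.

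Most genes with a site had no control peak at an end. Of the 2002 genes, 9.69% of 20665 autosomal coding genes, 1667 (83.3%) had no control peak at either end. That count leaves other knockout peaks aside. A site may not overlap a control peak, so part of this share follows from the rule. Of all 20665 genes, 11347 had no gene-end peak in either list, and 5896 had a shared peak and no site. By the mirror rule 1071 of all genes (5.18%) had a control-only peak. The share of all genes without a control peak is not given here. Of the 2002 genes, 207 (10.3%) also had a shared peak at an end and 140 (6.99%) a control-only peak. At 127 genes a knockout-only and a control-only peak of the mirror set were both present, and 93 of the 133 such pairs were at the same end, with a median distance of 238 bp between them. Cab39 had an 816 bp knockout peak 73 bp from a 482 bp control peak, Cebpb, a bZIP factor gene, a 455 bp peak 437 bp from one of 239 bp, and Ccne2, the cyclin E2 gene, a 1260 bp peak 238 bp from one of 262 bp. At such genes both lists had a peak, and the rule separates their positions and not the genes.

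There were 2 sites at 89 genes and 3 at 2 genes. Kmt2a, an H3K4 methyltransferase gene, had peaks of 503, 283 and 390 bp that covered the start or lay 352 and 797 bp from it, with no control peak nearer than 38220 bp. Jup, the plakoglobin gene, had peaks of 298 and 242 bp at its start and one of 169 bp at its 3′ end. Genes with 2 sites included Usp24, Dusp1, Sox4, Melk and C9orf72, each with both at the start, and Top2a and Clspn with one at each end.

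The widest knockout-only sites mostly covered an annotated end of their gene, and the genes had varied roles. Pde3b, a cAMP phosphodiesterase gene, was first with 1517 bp and Smurf2, a ubiquitin ligase gene, had 1244 bp. Close below stood Cdk9, the kinase of P-TEFb that releases paused RNA polymerase II, with 1234 bp on chromosome 2 (32712012 to 32713245, 4 lines). Its nearest control peak was 95 bp away. Itpk1, an inositol phosphate kinase gene, had 1235 bp on chromosome 12 (102704352 to 102705586) and Grk2, which encodes a kinase of G protein-coupled receptors, 1177 bp on chromosome 19 (4305379 to 4306555, 5 lines). Rps14, a protein gene of the small ribosomal subunit, had 1165 bp on chromosome 18 (60774248 to 60775412).

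Factors that act on chromatin or RNA came next. Anp32b, a histone chaperone family gene, had 1161 bp on chromosome 4 (46450526 to 46451686, 5 lines), with a control peak 886 bp away. Vezf1, a zinc finger transcription factor gene, had 1138 bp on chromosome 11 (88067659 to 88068796), Celf1, an RNA-binding splicing regulator gene, 1073 bp on chromosome 2 (90940174 to 90941246), and Sf3b5, a subunit gene of the splicing factor SF3B, 1070 bp on chromosome 10 (13007943 to 13009012) over its annotated end. Phc1, a Polycomb repressive complex 1 subunit gene, had 1054 bp on chromosome 6 (122339251 to 122340304, 5 lines), over a promoter with 9 CpG dinucleotides and a CpG ratio of 0.53. Runx1t1, a corepressor gene, had 1076 bp starting 196 bp from its end, 402626 bp from the nearest control peak.

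Further wide sites lay at genes of other functions. Me1, cytosolic malic enzyme, had 1118 bp on chromosome 9 (86695191 to 86696308). Golga4, a golgin, had 1112 bp, Tm9sf3 1109 bp, Sort1, the sorting receptor sortilin, 1098 bp, Bmp2k, a kinase of the NAK family, 1098 bp, Nfxl1 1085 bp, Tex30 and Myo1d, an unconventional myosin gene, 1083 bp each, and Arhgap11a 1075 bp. Where one of the 30 widest sites overlapped a promoter with an entry, the CpG ratio was between 0.80 (Npepl1) and 1.15 (Nfxl1), with Vezf1 with 0.97, Cdk9 with 0.85 and Me1 with 0.84.

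Of the genes for the synaptonemal complex and the chromosome axis, 6 of 18 had a knockout-only site (33.3%, 16.3 to 56.3), beside 9.69% of all autosomal coding genes, with a median width of 568.5 bp against 401 bp. They were Rad21l, a meiotic cohesin kleisin (922 bp), Tex12 (846 bp, 3 lines) and Syce2 (578 bp), both central element proteins, Rec8, the second meiotic kleisin (559 bp; chromosome 14, 55617844 to 55618402), Sycp3, an axis protein (473 bp), and Six6os1, a central element protein (332 bp). At 5 of them the peak covered the annotated start. The Sycp3 peak instead lay 751 bp from the start and 297 bp from the nearest control peak, beside a shared peak of the same gene. Of the other 12 genes, 8 had a shared peak, 2 a control-only peak (Fkbp6 and Sycp2l) and 2 none. Among the 14 genes of the list with any knockout peak at an end, 42.9% had a site, beside 24.1% of all 8320 such genes. By the mirror rule 2 of 18 had a control-only peak, beside 5.18% of all genes.

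In meiotic recombination 4 of 33 genes (12.1%, 4.82 to 27.3) had a knockout-only site, and 18 of the others had a shared peak. Of all 20665 autosomal coding genes 9.69% had a site, and 5896 had a shared peak and no site. Mnd1, whose product works with HOP2 in strand exchange, had 778 bp over its start (chromosome 3, 84155173 to 84155950), and its promoter had 12 CpG dinucleotides and a CpG ratio of 0.42. Exo1, an end-resecting nuclease gene, had 767 bp (chromosome 1, 175880294 to 175881060) and Mlh3, a crossover endonuclease subunit gene, 587 bp. The recombinase gene Dmc1 had a small second peak of 211 bp, 332 bp from its start and 163 bp from a control peak, beside a shared one. Among 20 genes of DNA damage signalling and sex chromosome silencing, 17 had a shared peak and no site. Only Chek1 had a site, of 934 bp (chromosome 9, 36726128 to 36727061, 3 lines). Fancd2 had a knockout-only peak that did not meet the limit to exactly 1 coding gene.

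Of 22 transcription regulators of pachytene, 19 had a shared peak and no site, beside 5896 of all 20665 autosomal coding genes. Knockout-only sites were at 2 of the 22 (9.09%, 2.53 to 27.8), beside 9.69% of all genes. E2f6, a repressor of germline genes, had 816 bp over its start (chromosome 12, 16810631 to 16811446, 3 lines), and Stra8 had only its 3′ sites. Of 24 piRNA pathway genes 4 had a site (16.7%, 6.68 to 35.9). Tdrd1, a tudor protein gene, had 396 bp over its start and Spocd1 had 336 bp. Pld6 and Exd1 had 236 and 216 bp at their 3′ ends, beside shared peaks. Of 26 genes of the meiotic divisions 1 had a site (3.85%, 0.682 to 18.9). It was Bub1, a spindle checkpoint kinase gene, with 622 bp (chromosome 2, 127831488 to 127832109). Of the others 16 had a shared peak and 3 a control-only peak alone.

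Of 38 genes of spermiogenesis 5 had a knockout-only site (13.2%, 5.75 to 27.3, beside 9.69% of all genes), and 4 had a control-only peak by the mirror rule. Spag6, an axonemal protein gene, had 673 bp over its start, and Pgk2, the testis phosphoglycerate kinase gene, 327 bp over a promoter with 4 CpG dinucleotides. Tekt5 and Ldhc had small peaks at their 3′ ends (285 and 168 bp), and H1f6, the testis linker histone H1t gene, one of 189 bp, 468 bp from its start. At their starts Tekt5 and Ldhc had control-only peaks, of 314 and 486 bp. Of 20 spermatogonial genes 3 had a site (15.0%, 5.24 to 36.0) and 3 others, Id4, Dmrt1 and Eomes, a control-only peak. The sites were at Sohlh2 (677 bp, 3 lines) and Foxo1 (480 bp), both over the start, and Uchl1 (411 bp). Markers of somatic cells with a site were Ctsl (830 bp), Amhr2 (416 bp) and Tjp1 (311 bp) among 18 Sertoli markers and the smooth muscle actin gene Acta2 (313 bp) among 20 of other cells. Each of these somatic markers had its peak in the knockout list alone. Amh, Sox9 and Wt1 had no peak in either list, and the part of other cell types in these sites was not tested.

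The signalling and chromatin lists are set beside the 9.69% of all genes with a site. In the SRCAP and H2A.Z list 1 of 16 (6.25%, 1.11 to 28.3) had one, Anp32e, the H2A.Z chaperone gene (313 bp over its start). Of 40 cAMP signalling genes 3 (7.50%, 2.58 to 19.9) had one, Pde3b, Crtc3, a CREB coactivator gene (502 bp), and Prkar2b (287 bp). Of 26 corepressor genes 5 (19.2%, 8.51 to 37.9) had one, Ctbp1 and Eid1 being followed by Ncor1 (427 bp, 276 bp from a control peak), Eid2 (376 bp) and Sap30 (296 bp). The Sap30 site lay 307 bp from a control-only peak at the same start, and Ncor1 also had a shared peak. In the H3K4 and H3K27 methylation list 4 of 31 (12.9%, 5.13 to 28.9) had one, Kmt2a, Cbx2 (448 bp), Cbx8 (282 bp) and Rbbp5 (244 bp). Those of Cbx8 and Rbbp5 were at the 3′ ends of genes that also had a shared peak. Among 30 genes of cell death and p53 signalling there were 4 with a knockout-only site (13.3%, 5.31 to 29.7). By the mirror rule 4 had a control-only peak, beside 5.18% of all genes. Zmat3 (772 bp), the proapoptotic gene Bax (445 bp over its start), Sesn2 (371 bp) and Gadd45b (285 bp, with a second peak) had the knockout-only sites. Without the limit to peaks at exactly 1 coding gene, Bbc3, Pmaip1, Bid, Tnfrsf10b and Perp had control-only peaks alone, and Sesn1 also had a knockout-only peak. Of 40 developmental regulators only Hoxb1 had a site (418 bp). Hsp90ab1, a housekeeping chaperone gene, had one of 490 bp, 160 bp from a control peak. The same gene also had a shared and a control-only peak.

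Gene families defined by symbol are likewise set beside the 9.69% of all genes. Of 415 genes of the Zfp, Zkscan and Zscan zinc finger series 59 had a site (14.2%, 11.2 to 17.9), led by Zfp606 (934 bp), Zfp146 (905 bp, 4 lines) and Zfp322a (711 bp). The protein phosphatase family had 13 of 76 (17.1%, 10.3 to 27.1), with Ppp2cb, a catalytic subunit gene of PP2A, at 1003 bp, and the proteasome family 9 of 50 (95% interval 9.77% to 30.8%), with Psmd14, the lid deubiquitinase gene, at 797 bp. Solute carriers had 45 of 362 (12.4%, 9.42 to 16.2), potassium channel genes 12 of 92 (13.0%, 7.62 to 21.4) and mitochondrial ribosomal protein genes 10 of 78 (12.8%, 7.12 to 22.0). By the mirror rule a control-only peak was at 30 of 415 zinc finger, 8 of 76 protein phosphatase and 2 of 50 proteasome genes. It was at 16 of 362 solute carrier, 5 of 92 potassium channel and 3 of 78 mitochondrial ribosomal protein genes, beside 5.18% of all genes. Across 27 families examined no difference from all genes was tested.

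Several families had mostly shared peaks. Of all 20665 autosomal coding genes 5896 had a shared peak and no site, and 9.69% had a site. Of 95 genes with cytosolic ribosomal symbols, 72 had a shared peak and no site, and 7 a site, Rps14, Rpl30 (774 bp) and Rps3 (643 bp) being the widest. Of 53 initiation factor genes 40 had a shared peak and 4 a site, with Eif2b5, a subunit gene of the eIF2 exchange factor, at 853 bp. Of 34 E2 ubiquitin-conjugating enzyme genes 26 had a shared peak and 2 a site. Olfactory receptor genes had 5 of 1104 (0.453%, 0.194 to 1.06) and vomeronasal receptor genes 2 of 354 (0.565%, 0.155 to 2.04). Among potassium channel genes the sites were small, with a median width of 287.5 bp. Of their 20 genes with any knockout peak at an end, 12 had a site, beside 24.1% of the 8320 such genes overall. This share was also high for olfactory receptor (71.4% of 7), cytochrome P450 (69.2% of 13) and Hox, Fox and Sox genes (54.5% of 22). For cytosolic ribosomal (8.86% of 79), initiation factor (8.70% of 46) and E2 genes (7.14% of 28) it was low.

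**Figure D4:**
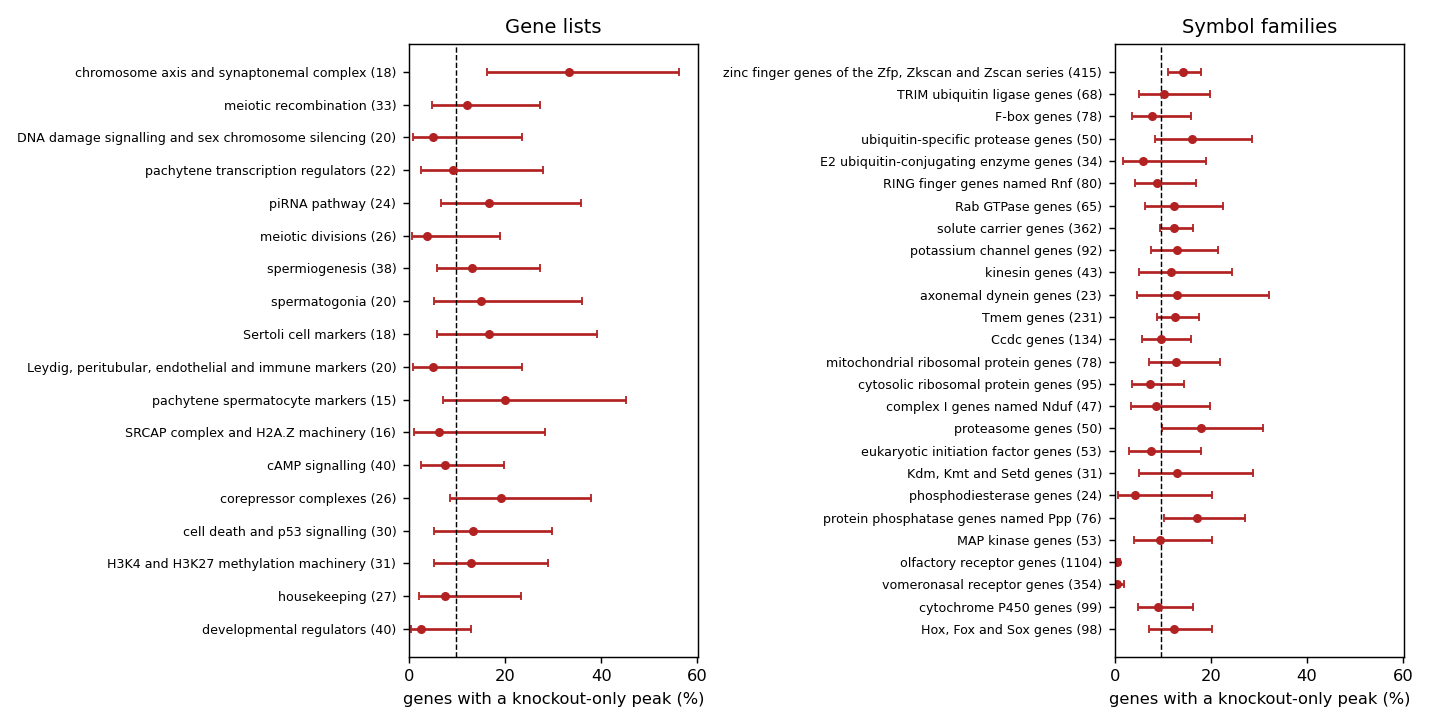
Points give the percentage of autosomal genes of each list (left) or symbol family (right) with a knockout-only site, bars are Wilson 95% intervals, the dashed line marks the 9.69% of all autosomal protein-coding genes, and the number of genes stands in brackets. Olfactory and vomeronasal receptor genes sit near 0 and the chromosome axis and synaptonemal complex list is highest at 33.3%, with a wide interval of 16.3 to 56.3.

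All 19 autosomes carried knockout-only sites, 47 on chromosome 18 and 206 on chromosome 2 being the fewest and the most. As a share of knockout peaks at single gene ends they ranged from 26.6% (20.6 to 33.5) on chromosome 18 to 40.9% (36.7 to 45.2) on chromosome 2, with 39.5% (35.2 to 44.0) on chromosome 7. The number of knockout-only sites exceeded that of control-only sites on all 19 autosomes, by 1.24 to 2.58 times. The share in the control list was highest on chromosome 7, with 26.8% of gene-end peaks.

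**Figure D5:**
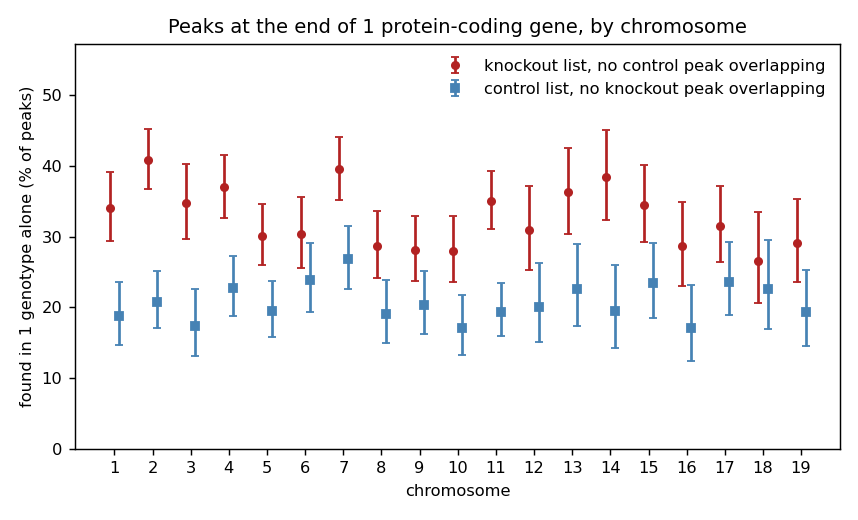
For each autosome the vertical axis gives the percentage of gene-end peaks without an overlapping peak in the other list, with Wilson 95% intervals, in the knockout list (circles) and the control list (squares). The knockout value lies above the control value on each autosome, by least on chromosome 18.

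Other gene types were near some sites. At 1807 of the 2095 (86.3%) no second annotated gene end of any type lay within 1 kb, while 244 (11.6%) were within 1 kb of a long non-coding RNA gene end, 17 of a microRNA gene end and 4 of a tRNA gene end. Genes with a knockout-only site had a median annotated length of 23450 bp, against 28191.5 bp for genes with a shared peak, 22696 bp for genes with a control-only peak and 17491 bp for all autosomal coding genes.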

How the data were processed

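ATAC-seq peak lists, 1 per genotype, were analysed, with groups taken from the sample titles. The authors deposited lists of chromosome, start and end with no header and no score. Build mm10 and the tools MACS2 2.2.4, Picard 2.20.7, Bowtie2 2.3.4.3 and cutadapt 2.5 are listed in the submitters' processing notes. The sources used here do not give each tool's role, the peak threshold, any Tn5 shift or whether replicates were pooled. Each list is recorded for replicate 1 of its genotype, and no separate list of replicate 2 was analysed here. Repeated lines for 1 interval can come from several summits in MACS2, and whether they did here is unknown.

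The lists had 29656 lines in the knockout and 24167 in the control. Each interval was counted once. Overlap, gene ends and promoters were computed with Python 3.11.15, numpy 2.4.6 and pandas 2.3.3, and figures drawn with matplotlib 3.10.9. Genes, strands and promoters came from RefSeq tables of GRCm38.p6, the assembly behind mm10. Strand and promoters were known for 16457 of 20665 autosomal coding genes. A gene can have several promoters, which need not lie at its outermost start. Where a site lay near both ends of its gene, the nearer was used. Distances run from nearest base to nearest base and positions are 1-based.

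The code was tested on simulated intervals. All 2500 made to overlap, 500 of them by 1 base, were found, also by bedtools 2.31.1, and 0 of 500 that lay on the next base. All 200 intervals placed 1000 bp from a gene end were found and 0 of 200 placed 1 bp further.

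Members, gene lists and motifs were chosen with earlier results of these data known, and the CpG ratio of 0.6 after the values were seen. Of 450 different list entries 448 matched a gene, 445 of them autosomal. Symbol families also take in genes that only share the letters. Genes were named by a rule: the 30 widest sites, the 10 on most lines, up to 4 per gene list and 3 per family, genes with several sites, and sites nearest each threshold, predicted names left out. Further list members, Gstm1 and Htatip2, and pairs with control peaks were added as examples after their values were seen. A few sites and 1 symbol family are not reported here. No test between genotypes was run.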

Additional observations from a re-analysis of the deposited data

How the results depend on the processing

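The numbers of sites and genes, the median width, the knockout-only share, the share overlapping a promoter and the ratio of knockout-only to control-only sites were recomputed under 10 alternatives, and the share listed more than once under 8. The ratio stayed above 1 in all 10. Promoter composition, motifs, gene lists, families and chromosomes were not recomputed. The number of sites was 1269 (at 1250 genes) when both lists were limited to intervals on at least 2 lines, and 643 (at 638 genes) when the knockout list alone was. The first setting also leaves out control peaks on 1 line, which can add sites. Only 643 of its 1269 sites were among the 2095 reported. The first setting also brought the ratio of knockout-only to control-only sites to 1.16, while the other settings gave 1.45 to 2.12. The knockout-only share of gene-end peaks was 45.0% when sharing needed 50% of both peaks, 30.8% when peaks up to 500 bp apart were taken as shared, 30.3% with a window of 500 bp, 40.9% with a window of 3 kb, 37.1% with both lists limited to intervals on at least 2 lines, 18.8% with the knockout list so limited, 29.1% for peaks of at least 300 bp, 29.2% with the widest peaks in equal number and 34.7% with exactly 1 gene of any type.

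The median width was 418 bp under the 50% rule, 415 bp and 346 bp with windows of 500 bp and 3 kb, 681 bp and 640 bp under the line limits for both lists and for the knockout list, 485 bp for peaks of at least 300 bp and 444 bp with equal numbers. In the same order of settings, the share overlapping a promoter was 64.8%, 69.6%, 42.3%, 86.3%, 79.0%, 70.9% and 66.2%, and it was 62.5% with peaks within 200 bp merged. The share listed more than once was 35.7%, 33.4%, 24.3%, 44.6% and 38.0% under the 50% rule, the windows of 500 bp and 3 kb, the 300 bp limit and equal numbers, and under the line limits every site is so listed by construction. The width limit, the line limits and the windows change by construction which peaks are counted, and the cause of the other shifts was not tested.

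No paired analysis was possible because 1 list per genotype was analysed, and no replicate was left out for the same reason. The depth of either list is unknown, and a closed site and an undetected one cannot be told apart.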

Other observations

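The sex chromosomes lie outside the rule and were counted in the same way. On the X chromosome 35 of 60 knockout peaks at the end of exactly 1 coding gene (58.3%, Wilson 95% interval 45.7 to 69.9) had no control peak on them, and 19 of 45 control peaks (42.2%, 29.0 to 56.7) had no knockout peak. On the autosomes the shares were 33.3% in the knockout list and 20.8% in the control list. X-linked knockout-only sites included those at the deubiquitinase gene Usp9x (858 bp), Bclaf3 (825 bp) and Hcfc1, a transcriptional coregulator gene (814 bp). Usp9x had a second site of 493 bp. On the Y chromosome 0 of 4 knockout and 0 of 5 control gene-end peaks were in 1 list alone. With so few peaks these intervals are wide, and no difference from the autosomes was tested.

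Promoters that carry CTCGCGAGA, the letters read by ZBTB33, numbered 9 of 993 under knockout-only peaks (0.906%, 0.478 to 1.71), 78 of 3139 under shared peaks (2.48%, 2.00 to 3.09) and 0 of 392 under control-only peaks, where the Wilson upper bound is 0.970%. For CACGTG, the E-box of MYC and related factors, the shares were 9.57%, 12.7% and 11.2%. The ZNF143 letters ACTACAATT were in 1.01%, 0.924% and 0.765% of the classes in that order, and the CTCF core GGNGGCAG in 15.3%, 14.5% and 14.5%.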
